A study of Mus musculus with 6 samples.

Results

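The ErbB receptors EGFR, ERBB2, ERBB3 and ERBB4 were examined in 22Rv1 prostate cancer cells. With them were 6 genes grouped as negative regulators, LRIG1, LRIG3, ERRFI1, RNF41, CBL and SOCS5, whose action on the receptors was not tested here. These 10 genes were picked by symbol, all 10 were found among the 58735 genes of the deposited count table, and all 10 were among the 17142 genes that passed the filter on low counts. 22Rv1 is a human prostate adenocarcinoma line. BL-B01D1 is an antibody-drug conjugate whose bispecific antibody binds EGFR and HER3, the product of ERBB3, and carries a camptothecin-derived inhibitor of topoisomerase I. The RNA-Seq libraries came from vehicle-treated parental 22Rv1 cells (n = 3) and from the 22Rv1 BL-B01D1_R subline (n = 3), which had been kept in stepwise increasing BL-B01D1. The sample labels give the organism as mouse, whereas the line, the hg38 build and the gene identifiers are human, and the counts were read as human. A single resistant subline was sequenced, so the libraries do not cover a repeated selection. Neither the labels nor the methods say whether the 3 libraries of a group were separate cultures, or whether the subline was in drug when its RNA was taken. The p-values therefore measure the spread between these libraries, which may be technical.

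ErbB receptors are tyrosine kinases of the cell surface that dimerize after binding a ligand of the EGF or neuregulin type and signal to the RAS-MAPK and PI3K-AKT pathways. ERBB2 has no known ligand and serves as a partner for the others, and ERBB3 has little kinase activity of its own and signals through its partners. Signaling is shut off by inhibitors of the kinase and by ubiquitin ligases that send the receptors to the lysosome, the route that also carries an antibody-drug conjugate into the cell.

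Gene counts summed to 13821639 to 17251491 per library. Levels are given as CPM, the counts per 1000000 after TMM scaling, and 3 counts equaled 0.174 to 0.216 CPM. No member had fewer than 132 counts in any library. Replicate libraries were not copies of each other (chi-square divided by its degrees of freedom, 1.77 to 2.46 within a group against 20.0 to 23.8 across groups), and all 6 were kept as separate samples. All 10 luminal prostate markers examined were detected, summing to 3448 to 3550 CPM in parental and 3640 to 3728 CPM in resistant libraries. The lists of basal, endothelial and immune markers each summed to at most 0.715 CPM in any library, with KRT5, CDH5 and CD3E at 0. Of the 4 fibroblast markers, COL1A2 stayed at or under 3 counts in every library, and the list summed to 111 to 114 CPM in parental and 39.0 to 43.4 CPM in resistant libraries, mostly through LUM (96.0 and 28.8 CPM). The 3 neuroendocrine markers summed to 135 to 149 CPM in parental and 110 to 118 CPM in resistant libraries. Within that list CHGA fell from 39.4 to 8.18 CPM (FDR = 2.49e-24), SYP was at 103 and 106 CPM (FDR = 0.531), and INSM1 stayed at or under 3 counts. The part of these differences in the results below was not tested.

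All 4 receptors differed between the lines, in both directions. EGFR and ERBB4 were higher in the resistant subline, by 29.9% and 50.3%, and ERBB2 and ERBB3 were lower, by 20.0% and 7.24%. None of the 6 negative regulators passed the test. A gene was called at a false discovery rate (FDR) under 0.05 from edgeR's quasi-likelihood test, adjusted over all genes tested. At that threshold 35.5% of all tested genes were called, 17.1% higher and 18.4% lower, so 4 calls among 10 genes is a share close to that of all genes. No member reached an absolute log2 fold change over 1, which the study required in addition and which 5.37% of tested genes met. In these bulk libraries, a lower level in every cell and a loss from a fraction of the cells cannot be told apart.

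**Figure D1:**
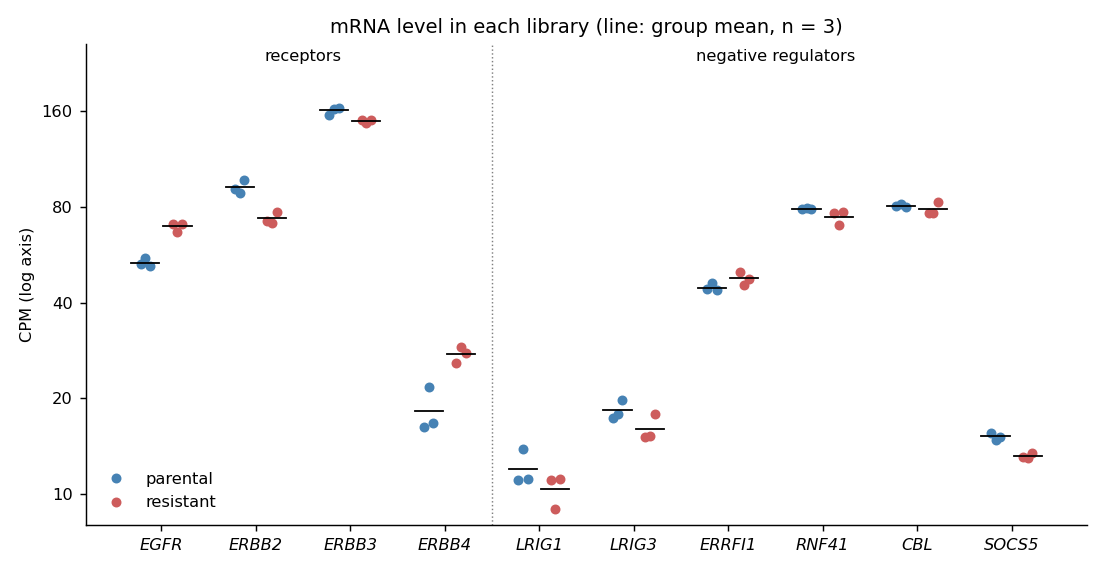
CPM of each of the 10 genes (log axis) in the 3 parental (blue) and 3 resistant (red) libraries, with a line at each group mean. The groups are apart for all 4 receptors, for RNF41 and for SOCS5, and overlap for the other 4 genes.

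EGFR (ENSG00000146648; hg38 chromosome 7, 55019021 to 55211628, forward strand) encodes the receptor for EGF and related ligands and is the first of the antibody's targets. Its mRNA was at 52.7, 55.1 and 52.3 CPM in parental libraries 1, 2 and 3 and at 70.6, 66.9 and 70.6 CPM in resistant libraries 1, 2 and 3. Every resistant library lay above every parental one, and the gap between the groups exceeded the range within either. The log2 fold change was 0.38 (SE 0.052, FDR = 9.96e-08), which corresponds to an increase of 29.9% with a 95% confidence interval of 20.9% to 39.7%. A two-sided p of 0.1 was the smallest that an exact permutation of 3 libraries against 3 could reach, and EGFR reached it.

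ERBB4 (ENSG00000178568; chromosome 2, 211375717 to 212538841, reverse strand) encodes a neuregulin receptor with an active kinase and was the weakest of the receptors at 232 to 449 counts per library. Its level was 16.2, 21.7 and 16.7 CPM in the parental libraries and 25.9, 29.0 and 27.7 CPM in the resistant libraries. The groups did not overlap, although parental library 2 lay closer to the resistant libraries than the other parental ones did. With a log2 fold change of 0.59 (SE 0.089, FDR = 9.07e-07), ERBB4 had the largest change of the 10 genes, larger in size than that of 86.5% of all tested genes. Without parental library 2 its log2 fold change was 0.74, the highest of the fits that each left out a library.

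ERBB2 (ENSG00000141736; chromosome 17, 39687914 to 39730426, forward strand), which encodes the receptor HER2, was at 90.7, 88.1 and 97.5 CPM in parental libraries and at 72.4, 71.3 and 76.8 CPM in resistant libraries. All resistant libraries lay below all parental ones. The log2 fold change was −0.32 (SE 0.047, FDR = 3.98e-07), a change of −20.0% with a 95% confidence interval of −25.1% to −14.6%. The gene overlaps MIEN1 and PGAP3 on the opposite strand, and the sources used here do not say whether counting used strand, so reads from the shared stretch may not be assigned to the right gene. MIEN1, at chromosome 17, 39728496 to 39730787, moved the other way, with a log2 fold change of 0.27 (FDR = 0.00236).

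ERBB3 (ENSG00000065361; chromosome 12, 56076799 to 56103505, forward strand) encodes HER3, the other target of the antibody, and was the most abundant of the 10 genes. Its counts were 2690, 2730 and 2275 in parental libraries and 2495, 2153 and 2440 in resistant libraries. These correspond to 156, 163 and 164 CPM against 151, 146 and 150 CPM, so that the groups were apart, by less than the range of the parental libraries. The log2 fold change was −0.11 (SE 0.035, FDR = 0.0143), a change of −7.24% with a 95% confidence interval of −11.7% to −2.51%. It was smaller in size than the change of most tested genes, with 34.9% of them below it. The call lay near the threshold and was lost in 3 of the 6 fits that each left out a library. Over these 6 fits the log2 fold change ran from −0.13 to −0.095. ERBB3 had FDR = 0.0546 without parental library 2, 0.0618 without parental library 3 and 0.0787 without resistant library 2, with log2 fold changes of −0.10, −0.095 and −0.095. EGFR, ERBB2 and ERBB4 kept their calls in all 6 fits that left out a library, with the highest FDR at 6.45e-05. For the same subline, the study reported a marked fall of HER3 protein by Western blot and of ERBB3 mRNA by qRT-PCR. In these counts the fall of ERBB3 mRNA was small, with the interval above reaching −11.7%. Neither measure was compared with these counts by a test, and the reason for the difference in size was not tested.

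**Figure D2:**
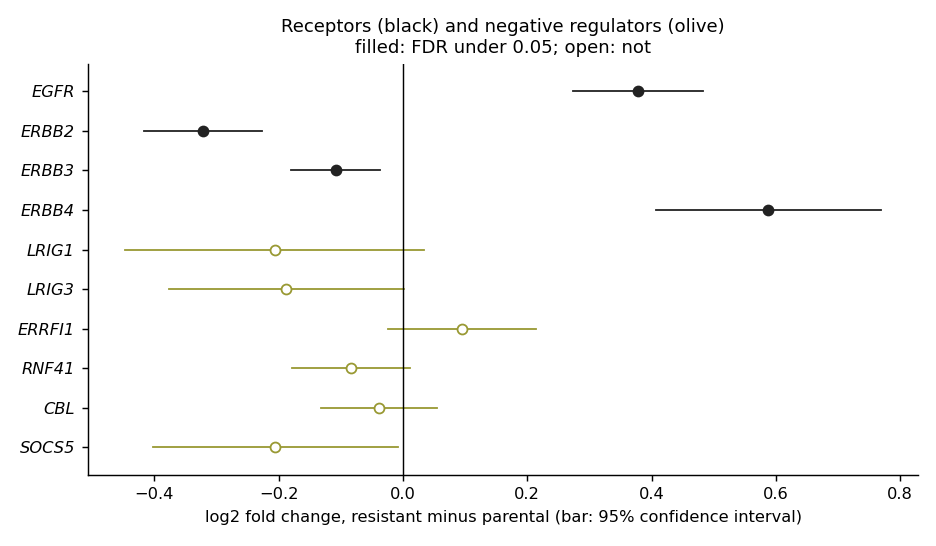
Log2 fold change of each of the 10 genes (resistant minus parental) with its 95% confidence interval, for receptors (black) and negative regulators (olive). Filled points are called at FDR under 0.05, and the values run from −0.32 for ERBB2 to 0.59 for ERBB4, with the regulators between −0.21 and 0.095.

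The receptor mRNA totals did not separate the groups. FPKM (CPM per kilobase of gene length) was computed from the counts and the listed gene lengths to set genes side by side. Sums, shares, ratios and ranks across genes depend on these lengths, which may differ from the length of the mRNA expressed. Summed over EGFR and ERBB3, which encode the antibody's targets, mRNA was at 21.5, 22.4 and 22.3 FPKM in parental libraries. It was at 22.3, 21.5 and 22.3 FPKM in resistant libraries. These ranges overlapped almost entirely, with means of 22.1 ± 0.51 and 22.0 ± 0.43 FPKM (SD, n = 3 each; exact permutation test, two-sided, p = 0.8). The sum over all 4 receptors was 32.4 ± 0.78 FPKM in parental and 31.3 ± 0.59 FPKM in resistant cells (SD, n = 3 each; exact permutation test, two-sided, p = 0.2).

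The makeup of the receptor transcripts separated the groups. ERBB3 exceeded EGFR by 4.10-, 4.08- and 4.34-fold per length in the parental libraries and by 2.95-, 3.03- and 2.95-fold in the resistant libraries. The within-library log2 ratio of EGFR to ERBB3, which does not depend on how libraries are scaled, was −2.06 ± 0.049 in parental and −1.57 ± 0.022 in resistant cells (SD, n = 3 each; exact two-sided permutation p = 0.1). EGFR made up 13.2 ± 0.46% of the receptor FPKM in parental and 17.7 ± 0.30% in resistant cells (SD, n = 3 each), and ERBB4 made up 4.32 ± 0.69% and 6.76 ± 0.46%. The share of ERBB2 was 27.6 ± 1.23% against 22.8 ± 0.53%, and that of ERBB3 was 54.9 ± 0.20% against 52.7 ± 0.49%. For each of the 4 shares the groups did not overlap, and ERBB3 made up at least 52.2% of the receptor FPKM in every library. Among the 6 ratios between receptor pairs, 5 separated the groups completely (exact permutation test, two-sided, p = 0.1 each and 0.12 after Benjamini-Hochberg adjustment over the 6). The ratio of EGFR to ERBB4 was the exception, with log2 values of 1.62 ± 0.19 and 1.39 ± 0.12 (SD, n = 3 each; exact permutation p = 0.3). Ratios of EGFR or ERBB4 to ERBB2 or ERBB3 had to separate the groups, since these genes did so singly, in opposite directions. The shares come from the same values, so neither is evidence beyond the 4 receptor differences. Singly, 44.8% of all tested genes separated the groups.

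**Figure D3:**
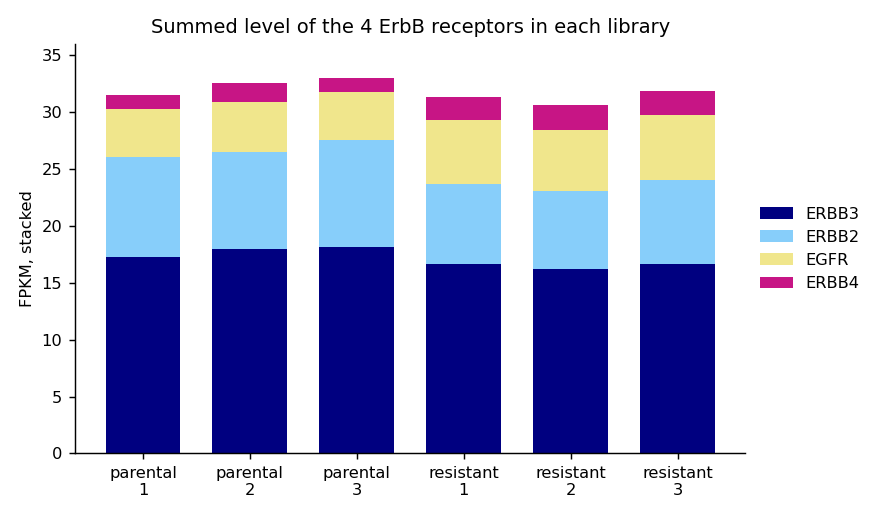
FPKM of the 4 ErbB receptors stacked for each of the 6 libraries, with bars starting at 0. The total lies between 30.7 and 33.0 FPKM in all libraries, and the EGFR and ERBB4 layers are thicker in the resistant ones.

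None of the 6 negative regulators was called by edgeR's quasi-likelihood test, and 1 of them, SOCS5, had an unadjusted p under 0.05. limma-voom and DESeq2 also called 0 of them. Of the 6, 5 had a negative log2 fold change, and the median was −0.14 against 0.0038 over all tested genes. The 95% confidence intervals, given below for each gene, bound how large a change these libraries leave room for.

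LRIG1 and LRIG3 encode transmembrane proteins with leucine-rich repeats, of which LRIG1 is known to promote the degradation of ErbB receptors. LRIG1 (chromosome 3, 66378797 to 66501263) was at 11.1, 13.8 and 11.2 CPM in parental and 11.1, 8.97 and 11.2 CPM in resistant libraries, which overlapped. As for ERBB4, parental library 2 held the highest parental value. The log2 fold change of LRIG1 was −0.21, with a wide 95% confidence interval of −0.45 to 0.034 (FDR = 0.185). It was −0.092 without parental library 2 and −0.11 without resistant library 2. LRIG1 overlaps SLC25A26 on the opposite strand. LRIG3 (chromosome 12, 58872149 to 58920522) was at 17.4, 17.9 and 19.8 CPM against 15.1, 15.2 and 17.8 CPM, with 2 of the 3 resistant libraries below all parental ones. Its log2 fold change was −0.19 (95% confidence interval −0.38 to 0.00096, FDR = 0.117). Without resistant library 3, LRIG3 passed the threshold at a log2 fold change of −0.27 (FDR = 0.0444).

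ERRFI1 (chromosome 1, 8004404 to 8026308) encodes a feedback inhibitor that binds the EGFR kinase domain and is itself induced by receptor signaling. Its level was 44.0, 46.0 and 43.8 CPM in parental and 50.0, 45.3 and 47.6 CPM in resistant libraries. Resistant library 2 fell within the parental range. ERRFI1 was the regulator with a positive log2 fold change, 0.095 (SE 0.059, 95% confidence interval −0.024 to 0.21, FDR = 0.223). Its log2 fold change was 0.060 without resistant library 1. Per length, EGFR stood at 0.40 of the ERRFI1 level in parental and 0.49 in resistant cells, without overlap of the libraries (exact two-sided permutation p = 0.1). As ERRFI1 was not called, this ratio restates the rise of EGFR and is not evidence beyond it.

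The ubiquitin ligases had the smallest standard errors of the regulators (0.047 for RNF41 and 0.046 for CBL). RNF41 (chromosome 12, 56202175 to 56221933) encodes the ligase that controls the steady-state turnover of HER3. It was at 79.0, 79.3 and 78.6 CPM in parental and 76.4, 70.2 and 77.0 CPM in resistant libraries. The groups did not overlap, but the log2 fold change of −0.083 (95% confidence interval −0.18 to 0.012) was not called (FDR = 0.176). Without resistant library 2 it was −0.042 (FDR = 0.599). The ratio of ERBB3 to RNF41 per length was 1.47 ± 0.041 in parental and 1.45 ± 0.052 in resistant cells (SD, n = 3 each; exact permutation test, two-sided, p = 0.6).

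CBL (chromosome 11, 119206276 to 119313926) encodes the ligase recruited to activated EGFR. Its level of 80.3, 81.7 and 80.1 CPM in parental libraries and 76.3, 76.7 and 82.8 CPM in resistant libraries gave the smallest change of the 10 genes. The log2 fold change was −0.039, with a 95% confidence interval of −0.13 to 0.055 (FDR = 0.564). For CBL it was −0.015 without resistant library 1, −0.021 without resistant library 2 and −0.077 without resistant library 3. The ratio of EGFR to CBL per length was 0.62 ± 0.011 in parental and 0.83 ± 0.035 in resistant cells (SD, n = 3 each; exact permutation test, two-sided, p = 0.1), as EGFR rose while CBL was not called.

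SOCS5 (chromosome 2, 46698952 to 46780245) encodes an adaptor of the suppressor of cytokine signaling family that can promote EGFR degradation. It was at 15.6, 14.8 and 15.1 CPM in parental and 13.1, 13.0 and 13.4 CPM in resistant libraries. The log2 fold change of SOCS5 was −0.21 (SE 0.098, 95% confidence interval −0.40 to −0.0080, FDR = 0.0998). This interval lay wholly on the negative side, but it is not adjusted for the number of genes tested, and SOCS5 was not called. The resistant libraries lay below all parental ones, and SOCS5 had 191 to 269 counts per library. In all, 6 of the 10 members separated the groups without overlap, against 44.8% of all tested genes.

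The order of the levels was led by ERBB3 in both lines. In parental cells, ERBB3 (17.8 ± 0.46 FPKM) was followed by RNF41 (12.1 ± 0.055), ERRFI1 (10.7 ± 0.30), ERBB2 (8.92 ± 0.47), CBL (6.88 ± 0.073), EGFR (4.26 ± 0.12) and LRIG3 (3.12 ± 0.22). SOCS5, LRIG1 and ERBB4 followed at 2.00 ± 0.052, 1.71 ± 0.22 and 1.40 ± 0.23 FPKM (SD, n = 3 each), and the ranges of neighbors in this last run overlapped. In resistant cells the ranges of RNF41 and ERRFI1 overlapped at 11.4 FPKM each, as did those of ERBB2 (7.12 ± 0.28) and CBL (6.69 ± 0.31). EGFR stood at 5.54 ± 0.17 FPKM, still under ERBB2, and ERBB4 at 2.11 ± 0.12 FPKM stood above SOCS5 and LRIG1. Against all tested genes, the mean FPKM of ERBB3 ranked at percentile 83.5 in parental and 82.1 in resistant cells, that of EGFR at 49.7 and 55.7, and that of ERBB4 at 27.3 and 34.4.

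Other genes that act on ErbB receptors were examined as 3 lists. The first held 16 further attenuators, ubiquitin ligases and phosphatases among them, all of which were tested. In the resistant subline 3 of them were higher and 3 lower, a share near that of all genes, with a median log2 fold change of 0.026. PTPRJ, a receptor-type phosphatase that can dephosphorylate EGFR, had the largest change of any gene on the lists. Its level was 28.0, 29.5 and 30.0 CPM in parental and 64.3, 73.6 and 68.6 CPM in resistant libraries. The log2 fold change of PTPRJ was 1.24 (SE 0.061, FDR = 2.20e-20), the only change on the 3 lists past an absolute log2 value of 1.

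NEDD4L and NEDD4 are related ubiquitin ligases, of which NEDD4 has been linked to HER3 degradation, and they moved in opposite directions. NEDD4L was at 37.0, 35.7 and 34.0 CPM in parental and 67.9, 68.9 and 66.8 CPM in resistant libraries, with a log2 fold change of 0.93 (FDR = 1.98e-17). NEDD4 fell from 47.2 ± 1.45 to 36.5 ± 1.18 CPM (SD, n = 3 each), with a log2 fold change of −0.37 (FDR = 4.31e-06). SPRY1, a feedback inhibitor of receptor tyrosine kinase signaling, fell by 0.52 on the log2 scale (FDR = 1.44e-05). The calls of PTPN1, the phosphatase that dephosphorylates several receptor kinases (0.12, FDR = 0.0340), and of CBLC, an epithelial relative of CBL (−0.37, FDR = 0.0247), were lost with DESeq2 (FDR = 0.0860 and 0.0780) and with limma on log2(FPKM + 1) (0.0536 and 0.0712). The call of PTPN1 was also lost with library size alone (0.0670) and with no filter (0.0556). PTPN1 also lost its call without parental library 1 or 2 or resistant library 1 or 2 (0.10 to 0.11), and CBLC without parental library 1 or 3 or resistant library 1 or 3 (−0.36 to −0.26).

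Among paralogs of the members, LRIG2, CBLB and SOCS4 were not called. CBLC was called, with the sign of CBL, but lost its call in some fits as given above. LRIG2 had a log2 fold change of 0.15 (FDR = 0.115), opposite in sign to LRIG1 and LRIG3. CBLB was at 19.8 ± 0.54 and 20.4 ± 1.01 CPM (SD, n = 3 each; FDR = 0.724) and SOCS4 at 74.4 ± 2.17 and 75.1 ± 1.42 CPM (FDR = 0.890). These genes were on the list of further attenuators.

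**Figure D4:**
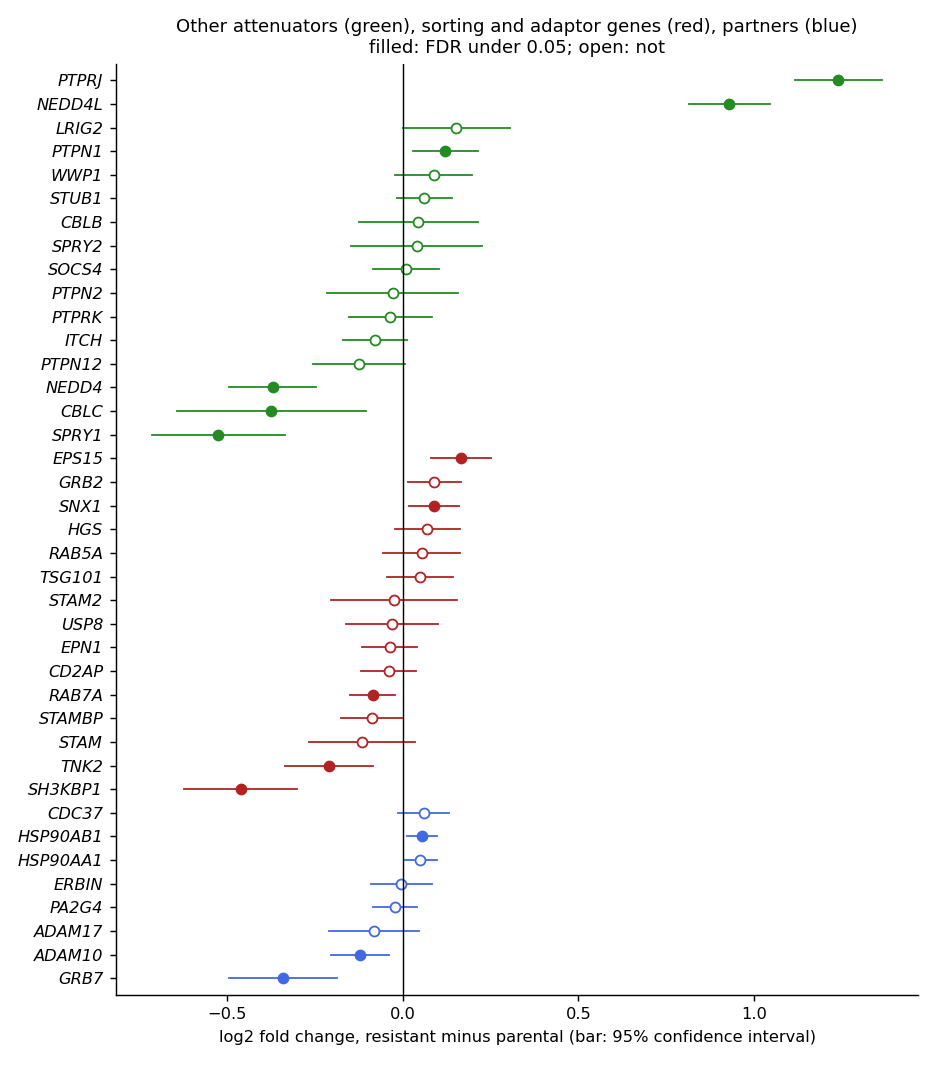
Log2 fold change with its 95% confidence interval for the tested genes of the 3 lists, the further attenuators (green), sorting and adaptor genes (red) and partners (blue), with filled points called at FDR under 0.05. PTPRJ at 1.24 and NEDD4L at 0.93 lie far to the right of the others, which range from −0.52 to 0.17.

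The second list held 17 genes of receptor sorting and ubiquitin recognition, of which UBASH3A and UBASH3B were too low to test. Of the 15 tested, 2 were higher (13.3%) and 3 lower (20%), with a median log2 fold change of −0.030. These shares were near those of all tested genes, 17.1% and 18.4%. SH3KBP1, the adaptor CIN85 that links CBL to the endocytic machinery, fell from 25.4 ± 0.92 to 18.5 ± 0.42 CPM (SD, n = 3 each), a log2 fold change of −0.46 (FDR = 9.23e-06). EPS15, an adaptor of clathrin-coated pits, rose by 0.17 on the log2 scale (FDR = 0.00157). The changes of TNK2, a kinase that binds activated EGFR, RAB7A, the GTPase of late endosomes, and SNX1, a sorting nexin, were −0.21, −0.086 and 0.089. USP8, the enzyme that removes ubiquitin from EGFR and stabilizes RNF41, was at 42.2 ± 3.73 and 41.5 ± 0.72 CPM (SD, n = 3 each; FDR = 0.765). TNK2, RAB7A and SNX1 were each called (FDR = 0.00670, 0.0329 and 0.0434) and lost the call in limma on log2(FPKM + 1), at FDR = 0.0925, 0.0666 and 0.0735. RAB7A and SNX1 also lost it with DESeq2 (0.0683 and 0.0883) and with no filter (0.0675 and 0.0849), and SNX1 with library size alone (0.101) and with the replicate number as a block (0.0568). TNK2 also lost it without parental library 3 (−0.16), RAB7A without parental library 2 or 3 or resistant library 2 or 3 (−0.081 to −0.068), and SNX1 without any 1 of the 6 libraries (0.078 to 0.0997).

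The third list held 8 chaperones, binding partners and sheddases of the receptors, all tested. Of these, 1 was higher (12.5%) and 2 lower (25%), against 17.1% and 18.4% of all tested genes. The median log2 fold change was −0.013. GRB7, an adaptor that binds ERBB2 and lies beside it in the genome, was at 28.6, 28.8 and 27.7 CPM in parental and 23.6, 21.1 and 22.4 CPM in resistant libraries. Its log2 fold change of −0.34 (SE 0.076, FDR = 3.59e-04) was close to that of ERBB2. ADAM10, a protease that sheds receptor and ligand ectodomains, had a log2 fold change of −0.12 (FDR = 0.0160), and HSP90AB1, a chaperone of ERBB2, of 0.055 (FDR = 0.0423). Both of these calls were lost with limma on log2(FPKM + 1), at FDR = 0.164 and 0.139. ADAM10 also lost it with DESeq2 (0.0511), and HSP90AB1 with library size alone (0.149) and with no filter (0.0644). Leaving out parental library 1 or 2 or resistant library 1 ended both calls (ADAM10 −0.10 to −0.093), and so did leaving out resistant library 2 for HSP90AB1 (0.049 to 0.057 over the 4).

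The genomic surroundings of ERBB3 and ERBB2 were examined in the same fit. RNF41 lies 98670 bases beyond the end of ERBB3, and PA2G4, which encodes a HER3-binding protein, lies 814 bases beyond it. PA2G4 was at 252 ± 7.39 and 249 ± 4.05 CPM (SD, n = 3 each; FDR = 0.637). Within 200 kb of ERBB3, 24 other genes were tested, of which 7 were higher and 2 lower. The share called, 37.5%, was near the 35.5% of all genes, and the median log2 fold change was 0.0027. The genes called higher were SUOX (0.28), MYL6 (0.31), DGKA (0.32), MYL6B (0.20), RPL41 (0.18), RPS26 (0.14) and ANKRD52 (0.13), and those called lower were COQ10A (−0.34) and NABP2 (−0.099). DGKA lost its call without parental library 1 (0.22), ANKRD52 without parental library 2 (0.092), COQ10A without parental library 1 or resistant library 3 (−0.28 and −0.29), and NABP2 without any 1 of the 6 libraries (−0.11 to −0.090). With all libraries, DGKA and ANKRD52 lost their calls in limma on log2(FPKM + 1) (FDR = 0.0852 and 0.0728), COQ10A with DESeq2 (0.0591), and NABP2 with DESeq2 (0.108), with no filter (0.115) and with the replicate block (0.0591).

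The neighbors of ERBB2, EGFR and ERBB4 were added after their values were seen. Within 200 kb of ERBB2, 2 of 11 tested genes were higher and 2 lower. The share called, 36.4%, was near the 35.5% of all tested genes. PPP1R1B, a phosphatase inhibitor gene at chromosome 17, 39626740 to 39636626, rose by 0.66 on the log2 scale (FDR = 4.08e-07), whereas GRB7 at 39737927 to 39747291 fell. IKZF3, further out at a mean of 2.20 CPM in parental cells, had a log2 fold change of −0.74 (FDR = 0.0447). In limma on log2(FPKM + 1) that value was −0.11 (FDR = 0.135). The call was also lost with DESeq2 (FDR = 0.115), with no filter (0.0562), with the replicate block (0.0607) and without parental library 2 or 3 or resistant library 1 or 2 (−0.85 to −0.53). CDK12 and STARD3, on the side of PPP1R1B, had log2 fold changes of −0.055 and 0.091, and neither was called. Neither of the 2 genes tested near EGFR was called, and no gene near ERBB4 had enough counts to be tested.

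**Figure D5:**
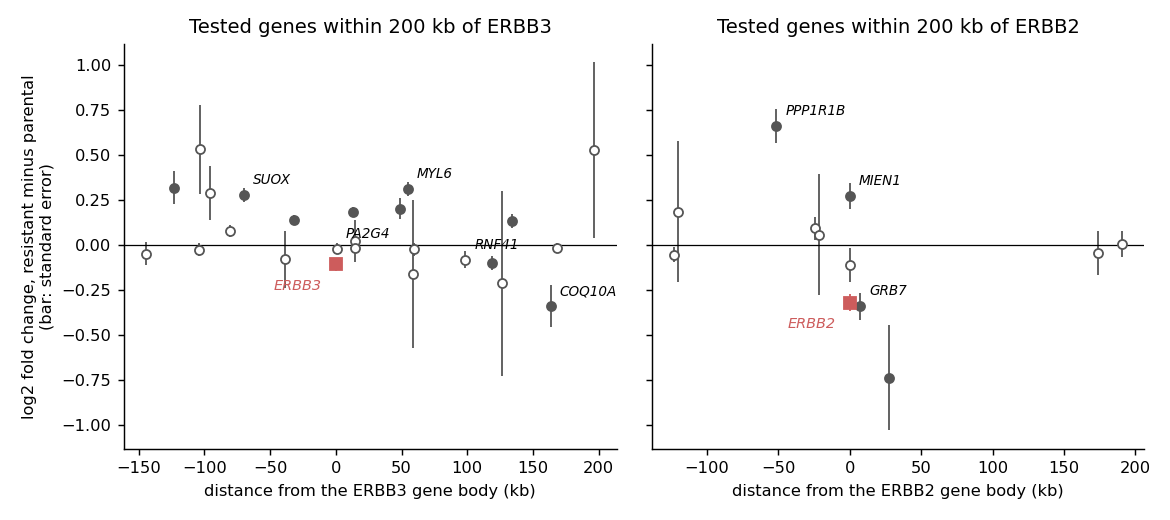
Log2 fold change with its standard error against the distance in kb from the gene body of ERBB3 (left) and ERBB2 (right), for the 24 and 11 other genes tested within 200 kb; filled points are called at FDR under 0.05 and red squares mark the receptors. Values lie on both sides of 0 around each receptor.

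Over the 6 libraries, the genes whose log2 CPM followed that of EGFR most closely were VPS28 (Pearson's r = 0.9996), GNPTG (0.9985) and PCDHB17P (0.998). Those closest to ERBB3 were ETNK2 (0.997), MYO1D (0.994) and ENOX2 (0.993). These values describe 3 libraries of each line, which share a line, a depth and a scaling, and 1750 genes had an r over 0.9 with EGFR and 894 with ERBB3.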

How the data were processed

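RNA-Seq of 3 parental and 3 resistant 22Rv1 libraries was analysed, with groups and replicate numbers taken from the sample labels. The authors selected mRNA with oligo-dT, mapped reads to hg38 with HISAT2 (2.0.5) and deposited raw counts per gene from featureCounts (1.5.0-p3) with gene position and length; the annotation release and strand setting are not given in the sources used here. The number of unused columns of per-sample values was 0. Genes were filtered with filterByExpr, and scaled with TMM, and 17142 genes entered edgeR's quasi-likelihood fit with Benjamini-Hochberg adjustment (R 4.3.3, edgeR version 4.0.16). The standard error is the log2 fold change divided by the square root of F. Single values were compared with an exact two-sided permutation test. The methods name limma. Alternatives were limma-voom (version 3.58.1), DESeq2 (1.42.0), library size alone, omission of the filter, a minimum of 10 counts per library, limma on log2(FPKM + 1), a replicate block and leaving out each library. Members and lists were chosen with earlier results of these data known. Named genes are the members, up to 3 genes per list and direction with the smallest p among those called, called protein-coding neighbors of ERBB3, and the 3 genes most correlated with EGFR and with ERBB3; others named are paralogs or partners of a member, or genes near ERBB2, chosen after their values were seen. On simulated counts for 17142 genes, edgeR recovered 99 of 100 genes changed by a log2 value of 2 and 92 of 100 changed by 1, with 10 false calls. The simulation used a single dispersion and far fewer changed genes than the 35.5% called in the data. It held no change as small as those of the members, at most 0.59, so recovery at their size was not tested.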

Additional observations from a re-analysis of the deposited data

How the results depend on the processing

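Over the 7 alternatives other than leaving out a library, all 70 log2 fold changes of the 10 members kept their direction and side of the FDR threshold. The count of members higher was 2 in every fit, and that of members lower was 2 except in the fits that each left out a library, where it ranged from 1 to 3. In those 60 values, 56 kept their call, ERBB3 lost it in 3 fits (log2 fold change −0.10 to −0.095) and LRIG3 gained it in 1. For both genes, the alternatives with all libraries ranged from −0.12 to −0.10 (FDR up to 0.0471) and from −0.20 to −0.14. The log2 ratio of EGFR to ERBB3 differed between the groups by 0.49, and by 0.46 to 0.50 with a library left out. Of 338 values for other named genes, 268 kept their call and 70 lost it; none reversed. Same-numbered libraries showed no shared deviation (correlations −0.027 to 0.0018, against −0.013 to 0.032 for different numbers). That cannot tell whether they were grown or prepared together. With the replicate number as a block, 2 members were higher and 2 lower. The paired difference of 0.49 in the log2 ratio of EGFR to ERBB3 had an exact sign-flip p = 0.25. That is the smallest p that 3 pairs can give, so it cannot speak against the difference. The groups of 3 limit unpaired permutation tests to p = 0.1, and 3 counts equal at most 0.216 CPM, far under every member.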
